A study of Homo sapiens with 12 samples.

Results

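The nuclear genome encodes most of the subunits of respiratory complexes I, II and III, and their transcripts are described here in MV3 melanoma cells. Members were chosen by gene name: every NDUFA, NDUFB, NDUFC, NDUFS or NDUFV name followed by digits alone for complex I, the SDHA to SDHD genes of complex II, and 9 genes of complex III (CYC1, UQCRB, UQCRC1, UQCRC2, UQCRFS1, UQCRH, UQCRQ, UQCR10 and UQCR11). The rule found 51 gene identifiers with 50 symbols among the 58288 identifiers of the count table. SDHD had a second identifier with 0 reads in each of the 12 libraries. By counting error alone that allows up to 0.0699 to 0.138 CPM of unscaled library totals, depending on the library. Same-strand genes, SDHD among them, cover 96.0% of its exon length, so its count sets no limit on its level. The other 50 identifiers passed the filter on low counts and were tested. The name rule leaves out NDUFAB1, the acyl carrier protein of complex I, and UQCRHL, a copy of UQCRH, and it includes NDUFA4, which is now regarded as a subunit of complex IV.

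MV3 is an established human melanoma line from a lymph node metastasis. The M1 group (n = 3) received medium conditioned by THP-1 monocytes that had been differentiated to macrophages with PMA and then polarized with LPS and IFNγ. The M2 group (n = 3) received medium of THP-1 macrophages polarized with IL4 and IL13 after PMA, and the M0 group (n = 3) medium of macrophages treated with PMA alone. The Ctrl group (n = 3) received fresh RPMI medium that no cell had conditioned, so a difference from Ctrl includes conditioning as such. All groups shared a culture of 3 h in medium with 1% serum followed by 24 h of exposure. The stated question was how the M0, M1 and M2 groups differ. No label says that replicates were separate cultures, and p-values here describe the spread between these samples, which can be technical.

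Complex I oxidizes NADH and complex II, succinate dehydrogenase, oxidizes succinate, and both pass electrons to ubiquinone in the inner mitochondrial membrane. Complex III takes electrons from ubiquinol to cytochrome c. Complexes I and III pump protons and hold subunits made from mitochondrial DNA beside the nuclear ones, while complex II pumps none, is wholly nuclear-encoded and is also an enzyme of the citric acid cycle. Melanomas are known to vary in their use of oxidative phosphorylation, for which the coactivator PPARGC1A is a known regulator.

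Library totals ran from 21788397 to 42921242 counts, and levels are given as CPM, the counts per library size scaled by TMM. Of 8 melanoma markers, SOX10, MLANA, PMEL, TYR, DCT and S100B did not pass the filter and stayed at or near 0, whereas AXL averaged 1253 ± 66.7 CPM in M1, 1791 ± 39.3 in M2, 2125 ± 55.6 in M0 and 2442 ± 384 in Ctrl (SD, n = 3 each). MITF, a regulator of the melanocyte lineage, averaged 2.18 ± 0.259, 2.16 ± 0.184, 3.10 ± 0.182 and 1.17 ± 0.386 CPM in the same groups and was higher than Ctrl in each medium, by a log2 change of 0.86, 0.86 and 1.38 in M1, M2 and M0 (adjusted p = 0.0016, 0.0021 and 3.2e-05). The 12 macrophage markers summed to 1.73 to 1.80 CPM in M1, 1.38 to 1.91 in M2, 1.42 to 1.77 in M0 and 1.66 to 1.71 in Ctrl, and 10 of them did not pass the filter. The scavenger receptor MSR1 passed and was higher than Ctrl in each medium, averaging 0.724 ± 0.208 CPM in M1, 0.643 ± 0.181 in M2, 0.560 ± 0.0433 in M0 and 0.181 ± 0.0870 in Ctrl (adjusted p = 0.00015, 0.00071 and 0.0024 in M1, M2 and M0 against Ctrl). CD33, a myeloid surface protein, passed too and was lower in M1 than in Ctrl, at -0.82 (log2, adjusted p = 0.024). These markers moved with the media, and their part in the results was not tested. Ctrl replicate 1 stood apart: its members had a median deviation of -0.26 (log2) from the mean of the other Ctrl libraries. Its 8 mitochondrially encoded complex I and III genes summed to 236 CPM, against 23.0 to 35.9 CPM in the other 11 libraries. The nuclear members summed to 2368 to 3460 CPM over the 12 libraries. Whether the low mitochondrial counts follow the transcript levels was not tested. M0 replicate 3 had a median member deviation of 0.11 (log2) from the mean of the other M0 libraries. M1 replicate 2 had 6 members more than 0.5 (log2) below the mean of the other M1 libraries. In bulk RNA, fewer cells of a kind and less RNA per cell cannot be told apart.

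In medium from M1 macrophages most members were lower than in fresh medium and than in M0 medium, and fewer were lower than in M2 medium. With adjusted p under 0.05 in edgeR's quasi-likelihood test over 14088 genes, 41 of 50 members were lower in M1 than in Ctrl and 1 was higher, where 35% of all genes were lower and 35.2% higher. The median member had a log2 fold change of -0.48 in M1 against Ctrl, beside -0.004 for all genes. Against M0, 41 members were lower in M1 and 0 higher, where 26.7% of all genes were lower and 25.5% higher, and the medians were -0.44 for members and -0.01 for all genes. Against M2, 19 members were lower in M1 and 0 higher, where 16.6% and 15.9% of all genes were lower and higher, and the medians were -0.17 and -0.03. No member was higher by an unadjusted p under 0.05, by DESeq2 or by limma in M1 against M0 or in M1 against M2. With M2 replicate 1 left out, 11 members were lower in M1 than in M2, and 23.3% of all genes were called in either direction, against 32.5% with all libraries.

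In M2 medium 26 of 50 members were lower than in Ctrl and 4 higher, where 32.4% of all genes were lower and 34.1% higher. The median member stood at -0.25 (log2), beside 0.02 for all genes. In M0 medium the members were split: 16 were lower than in Ctrl and 4 higher, where 30.6% and 31.1% of all genes were lower and higher, and the medians were -0.009 for members and 0.004 for all genes. Against M0, 21 members were lower in M2 and 0 higher, where 12.7% and 12.5% of all genes were, with medians of -0.21 and 0.001. By an unadjusted p 1 member was higher in M2 than in M0, and by DESeq2 and by limma 0 were. The count of 21 rested on single libraries: it was 6 when M0 replicate 3 was left out, 11 when M2 replicate 2 was and 10 when M2 replicate 3 was. In the same 3 fits 11.1%, 13.5% and 13.2% of all genes were called in either direction, against 25.2% with all libraries. The 4 calls higher than Ctrl rested on single libraries too. In M0 1 was called without Ctrl replicate 1 or M0 replicate 2 and 2 without Ctrl replicate 2, and in M2 1 was called without Ctrl replicate 1 or M2 replicate 1 and 2 without Ctrl replicate 2 or M2 replicate 3.

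**Figure D1:**
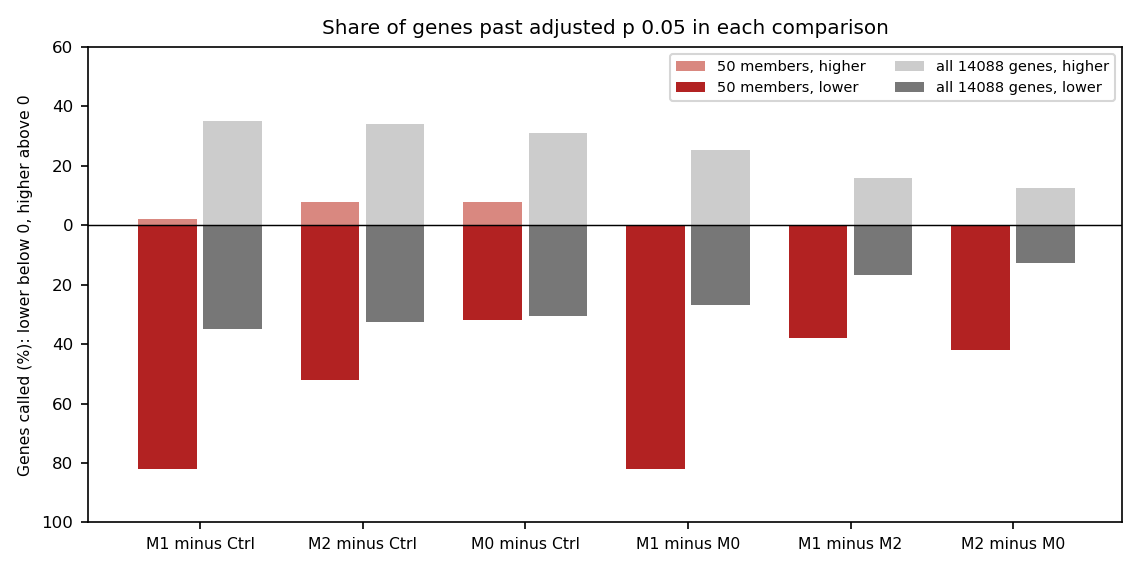
Share of the 50 members (red) and of all 14088 tested genes (grey) with adjusted p under 0.05 in each comparison, in percent, with lower genes below 0 and higher genes above. In M1 minus Ctrl and M1 minus M0, 82% of members were lower, against 35% and 26.7% of all genes, while in M0 minus Ctrl the shares were 32% and 30.6%.

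In M1 against Ctrl 21 of 50 members were called and at least 1.5-fold lower, where 20.6% of all genes were, and in M1 against M0 11 were, where 9.54% were. In M2 against Ctrl 12 members were at least 1.5-fold lower (18.5% of all genes), and in M0 against Ctrl 3 were (16.6% of all genes): NDUFA5, SDHA and UQCR10. In M1 against M2 5 members passed that fold (4.5% of all genes), and in M2 against M0 1 did (2.96% of all genes), which was NDUFB6. A joint test among the M1, M2 and M0 groups called 40 of 50 members, where it called 56.6% of all genes. It called 30 without M0 replicate 3.

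Set against Ctrl, the members fell into a few call patterns. All 3 conditioned media had lower levels of 16 members: NDUFA2, NDUFA5, NDUFA9, NDUFA12, NDUFB3, NDUFB4, NDUFB5, NDUFB6, NDUFB9, NDUFS5, all 4 SDH genes, UQCR10 and UQCRB. They were 32% of the members, where 21.6% of all tested genes were lower in all 3. A further 10 members were lower in M1 and M2 without a call in M0 (20% of members and 5.5% of all genes), and 14 were lower in M1 without a call in M2 or M0 (28% and 5.08%). NDUFV3 was higher in all 3 media, NDUFV1 and UQCRC1 in M2 and M0, UQCR11 in M2, and CYC1 was lower in M1 and higher in M0. The remaining 5, NDUFA1, NDUFA7, NDUFA13, NDUFS1 and NDUFV2, had no call against Ctrl. The 3 comparisons share the Ctrl libraries.

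**Figure D2:**
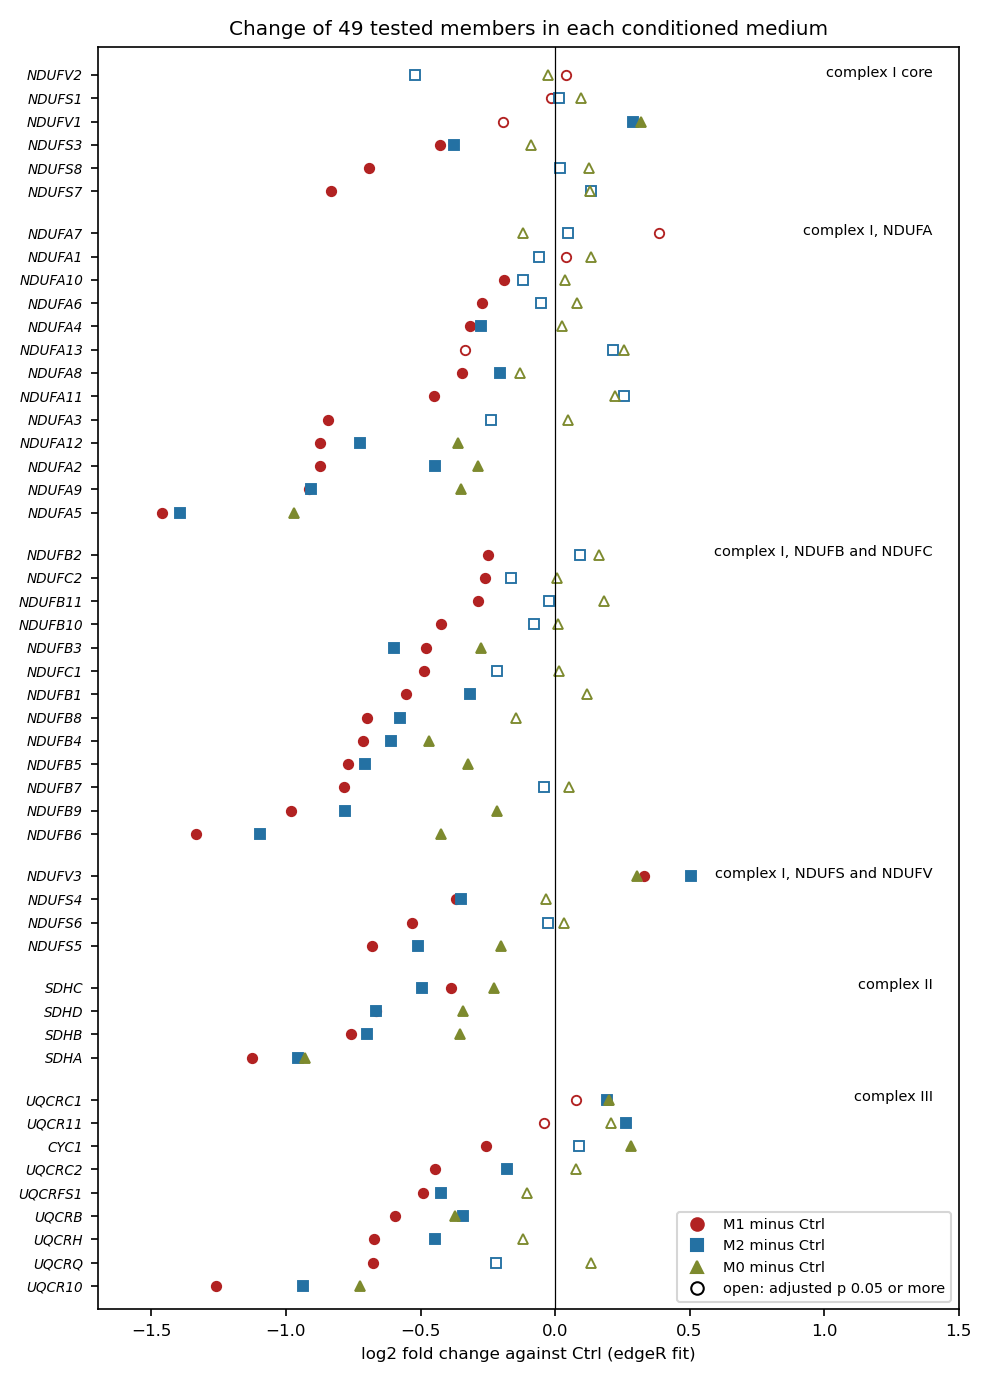
Log2 fold change against Ctrl (x axis, edgeR fit) of 49 of the 50 tested members (rows, grouped by complex and subunit class) in M1 (circles), M2 (squares) and M0 (triangles), with filled symbols for adjusted p under 0.05. Within most rows the M1 symbol lies left of M0, the 4 complex II genes lie left of 0 in all 3 media, and NDUFV3 lies right of 0 in all 3.

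Promoter sequences are shown for 5 members because they differ in how they moved and in which motifs they hold. SDHA, SDHD and UQCR10 fell in all 3 media and hold the NRF1 motif, UQCRC1 holds it and was not lower in any medium, and NDUFB6, which fell in all 3, holds none of the motifs searched. The windows run from 250 bases before to 50 after the gene start (RefSeq, GRCh38.p14), 5′ to 3′ on the gene's strand, with matches in capitals: GCGCA and GCGC with any 1 base between them (NRF1), CCGGAAG (ETS factors such as GABPA), AAGATGGCG (YY1) and TCAAGGTCA (estrogen-related receptors), on both strands. SDHA lies on the plus strand (chr5:218070-218369), SDHD on the plus strand (chr11:112086623-112086922), UQCR10 on the plus strand (chr22:29767119-29767418), UQCRC1 on the minus strand (chr3:48609597-48609896) and NDUFB6 on the minus strand (chr9:32573110-32573409).
SDHA: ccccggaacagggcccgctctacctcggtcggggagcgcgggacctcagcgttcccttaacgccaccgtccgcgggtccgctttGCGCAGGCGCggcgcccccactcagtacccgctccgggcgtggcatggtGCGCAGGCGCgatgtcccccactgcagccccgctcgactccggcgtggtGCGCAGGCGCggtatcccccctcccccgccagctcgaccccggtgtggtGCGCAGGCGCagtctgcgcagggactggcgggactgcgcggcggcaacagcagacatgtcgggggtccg
SDHD: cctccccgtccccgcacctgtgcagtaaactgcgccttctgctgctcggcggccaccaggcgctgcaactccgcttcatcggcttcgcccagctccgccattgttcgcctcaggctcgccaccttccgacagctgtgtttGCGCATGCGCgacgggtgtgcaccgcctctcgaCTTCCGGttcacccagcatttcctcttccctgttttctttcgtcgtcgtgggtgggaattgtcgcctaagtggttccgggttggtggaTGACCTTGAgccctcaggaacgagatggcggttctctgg
UQCR10: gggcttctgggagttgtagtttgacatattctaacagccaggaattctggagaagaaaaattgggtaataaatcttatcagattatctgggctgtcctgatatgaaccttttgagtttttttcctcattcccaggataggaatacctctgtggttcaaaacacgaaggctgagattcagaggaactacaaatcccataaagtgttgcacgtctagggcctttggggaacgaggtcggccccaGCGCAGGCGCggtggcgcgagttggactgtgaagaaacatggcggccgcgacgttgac
UQCRC1: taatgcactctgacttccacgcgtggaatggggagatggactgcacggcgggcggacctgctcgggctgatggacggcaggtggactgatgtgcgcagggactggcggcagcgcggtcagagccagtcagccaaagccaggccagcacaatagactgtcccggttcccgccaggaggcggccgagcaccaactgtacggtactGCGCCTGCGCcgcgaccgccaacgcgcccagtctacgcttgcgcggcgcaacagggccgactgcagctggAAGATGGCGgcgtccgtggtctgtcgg
NDUFB6: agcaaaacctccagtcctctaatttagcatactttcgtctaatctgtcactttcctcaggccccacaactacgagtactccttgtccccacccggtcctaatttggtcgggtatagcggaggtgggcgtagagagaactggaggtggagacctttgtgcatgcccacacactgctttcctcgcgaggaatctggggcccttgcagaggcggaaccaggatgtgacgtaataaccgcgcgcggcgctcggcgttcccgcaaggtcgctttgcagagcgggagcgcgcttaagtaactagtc
SDHA held 4 copies of the NRF1 motif, and SDHD held the NRF1, the ETS and the estrogen-related receptor motif, the last and the ETS match on the opposite strand. RefSeq windows matched 41 of the 50 symbols. The NRF1 motif was in 12 of the 41 (29.3%), against 6.3% of all 27305 promoter windows. The ETS motif was in 10 (24.4% against 10.7%), the YY1 motif in 7 (17.1% against 1.8%) and the estrogen-related receptor motif in 1 (2.4% against 0.4%). The 12 members with the NRF1 motif had median log2 fold changes against Ctrl of -0.69 in M1, -0.52 in M2 and -0.24 in M0, and the 29 without it -0.45, -0.12 and 0.04. In M1 against M0 the medians were -0.36 with and -0.49 without the motif. With and without the ETS motif the medians against Ctrl were -0.55 and -0.49 in M1, -0.14 and -0.21 in M2, and 0.07 and 0.01 in M0. With and without the YY1 motif they were -0.37 and -0.49 in M1, -0.05 and -0.22 in M2, and -0.04 and 0.02 in M0. These are descriptions of letters in a window, and they were not tested.

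The 7 core subunits of complex I carry its redox centres and quinone site. In M1 4 of them were lower than in Ctrl and 0 higher, in M2 2 were lower and 1 higher, and in M0 0 were lower and 1 higher. The lower genes were 57.1% of the class in M1 and 28.6% in M2, where 35% and 32.4% of all genes were, so the M2 share was near that of all genes. By DESeq2, by limma and by an unadjusted p under 0.05 these counts of 0 were 0 as well, as were those given below for the NDUFA, NDUFB, NDUFC and complex III genes. Among the macrophage media, 5 were lower in M1 against M0, 3 in M1 against M2 and 2 in M2 against M0. That was 71.4%, 42.9% and 28.6% of the class, where 26.7%, 16.6% and 12.7% of all genes were lower. The call higher was lost in M0 and in M2 without Ctrl replicate 1, which also left 1 gene lower in M0, and in M2 without M2 replicate 1 or 3. The 2 lower in M2 against M0 became 1 without M0 replicate 3, M2 replicate 2 or M2 replicate 3. Summed over the 7 genes, levels were 574 ± 3.86 CPM in M1, 645 ± 13.1 in M2, 699.5 ± 18.2 in M0 and 657 ± 25.9 in Ctrl (SD, n = 3 each), or 87.4%, 98.2% and 106.5% of Ctrl in M1, M2 and M0. The largest part of each sum came from NDUFS1, which had no call in any comparison, so these percentages weigh that gene most.

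NDUFS7 and NDUFS8 carry iron-sulfur clusters on the way to ubiquinone. NDUFS7 had 12.2, 7.23 and 16.2 CPM in M1, 25.7, 20.8 and 23.3 in M2, 22.1, 25.4 and 22.4 in M0 and 17.3, 21.4 and 25.3 in Ctrl. Every M1 library lay below every other library, and M1 replicate 2 was lowest. The log2 fold change was -0.96 (SE 0.34, adjusted p = 0.0011) in M1 against M0 and -0.96 (SE 0.35, adjusted p = 0.0020) in M1 against M2, the lowest of all members in both comparisons. In M1 against Ctrl it was -0.83 (SE 0.37, adjusted p = 0.0018). Without M1 replicate 2 the 3 log2 values of NDUFS7 were -0.70, -0.71 and -0.58. Of its exon length, 49.1% is overlapped by genes on the opposite strand. NDUFS8 had 29.8, 22.3 and 34.6 CPM in M1, 49.9, 45.4 and 46.8 in M2, 47.2, 55.4 and 50.7 in M0 and 40.0, 47.7 and 52.9 in Ctrl, and M1 again lay apart from the other groups. Its log2 fold change was -0.82 (SE 0.20, adjusted p = 0.00011) in M1 against M0 and -0.71 (SE 0.19, adjusted p = 0.00073) in M1 against M2.

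NDUFV1 binds NADH and the flavin that accepts its electrons. It had 85.6, 70.6 and 89.9 CPM in M1, 120, 108 and 116 in M2, 108, 124 and 119 in M0 and 85.1, 93.3 and 103 in Ctrl. M2 and M0 lay above Ctrl, and M1 overlapped it. The log2 fold change was 0.32 (SE 0.10, adjusted p = 0.0070) in M0 and 0.29 (SE 0.091, adjusted p = 0.012) in M2 against Ctrl. Both calls were lost without Ctrl replicate 1, at 0.23 (adjusted p = 0.062) in M0 and 0.20 (adjusted p = 0.090) in M2. The M2 call was also lost without M2 replicate 1 or 3, at 0.24 and 0.26. NDUFV1 was lower in M1 than in M0, with a log2 change of -0.51 (SE 0.12, adjusted p = 0.00029).

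NDUFS3, of the arm that reduces quinone, fell in M1 and M2. It had 57.5, 59.4 and 55.8 CPM in M1, 60.6, 60.2 and 58.5 in M2, 70.1, 72.1 and 76.2 in M0 and 70.8, 79.2 and 82.4 in Ctrl. M1 and M2 overlapped each other and lay below M0 and Ctrl, which overlapped as well. NDUFS3 was lower than Ctrl with log2 fold changes of -0.43 (SE 0.070, adjusted p = 2.8e-05) in M1 and -0.38 (SE 0.067, adjusted p = 0.00012) in M2.

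NDUFS1, which holds several iron-sulfur clusters, passed the test in none of the 6 comparisons. It had 279.7, 309.8 and 281 CPM in M1, 296, 301 and 292 in M2, 321, 302 and 318 in M0 and 295, 297 and 287 in Ctrl, so that all groups overlapped apart from M0, which lay above Ctrl and M2. NDUFV2, another iron-sulfur subunit, was counted at only 0.107 to 0.434 CPM in any library. The copy NDUFV2P1 reached 1.86 CPM and held 519% of the reads of NDUFV2, and a same-strand gene covers 28.4% of its exon length, so the count of NDUFV2 is uncertain.

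The NDUFA subunits are accessory, and support assembly and stability. Of 13 tested, 10 were lower in M1 than in Ctrl, 6 in M2 and 4 in M0, with 0 higher. These are 76.9%, 46.2% and 30.8% of the class, where 35%, 32.4% and 30.6% of all genes were lower. The M0 share was near that of all genes. Between M1 and M0, 11 were lower in M1, in M2 against M0 4 (1 without M0 replicate 3) and in M1 against M2 3. With all libraries that was 84.6%, 30.8% and 23.1% of the class, where 26.7%, 12.7% and 16.6% of all genes were lower. NDUFA5, an accessory subunit of the matrix arm, had the lowest log2 fold change of all members against Ctrl in each medium. It had 15.1, 16.2 and 15.5 CPM in M1, 17.6, 15.3 and 15.8 in M2, 21.7, 18.8 and 24.9 in M0 and 39.1, 45.8 and 43.7 in Ctrl. The M1 and M2 libraries overlapped each other, M0 lay above them and all were below Ctrl. Against Ctrl NDUFA5 had a log2 change of -1.46 (SE 0.073, adjusted p = 3.6e-09) in M1, a fall of 2.75-fold, -1.40 (SE 0.091, adjusted p = 9.4e-09) in M2 and -0.97 (SE 0.14, adjusted p = 6.0e-07) in M0. Against M0 it was lower in M1, at -0.49 (SE 0.12, adjusted p = 0.00092). Its call in M2 against M0 (-0.43) was lost without M0 replicate 3, at -0.31 (adjusted p = 0.060).

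NDUFA9 and NDUFA3 differed in where they fell. NDUFA9, which sits where the arms of complex I meet, had 15.6, 13.8 and 16.4 CPM in M1, 16.4, 14.7 and 15.1 in M2, 21.4, 21.2 and 25.3 in M0 and 30.0, 26.4 and 30.1 in Ctrl. M1 and M2 overlapped, M0 was higher and Ctrl highest. NDUFA9 was lower in M2 than in M0 with a log2 change of -0.56 (SE 0.10, adjusted p = 0.0016), and lower than Ctrl in M1 with -0.92 (SE 0.10, adjusted p = 3.8e-07). NDUFA3, of the membrane arm, had 14.4, 12.4 and 17.3 CPM in M1, 24.6, 20.8 and 21.6 in M2, 24.0, 27.9 and 30.1 in M0 and 20.3, 28.9 and 30.4 in Ctrl. M1 lay below each other group, while M2 and M0 overlapped Ctrl. NDUFA3 had log2 fold changes of -0.89 (SE 0.17, adjusted p = 0.00016) in M1 against M0 and -0.24 (SE 0.20, adjusted p = 0.16) in M2 against Ctrl. NDUFA7 was counted at 0.128 to 0.545 CPM only, and NDUFA1, NDUFA7 and NDUFA13 have over 20% of their exon length under another gene. The same holds for NDUFB2, NDUFB8, NDUFB9, NDUFB11, NDUFS7, NDUFV2 and UQCRQ, which makes 10 of the 50 tested members.

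The NDUFB and NDUFC subunits belong to the proton-pumping membrane arm. All 13 tested were lower in M1 than in Ctrl, 7 in M2 and 5 in M0, with 0 higher. In M1, M2 and M0 that is 100%, 53.8% and 38.5% of the class, where 35%, 32.4% and 30.6% of all genes were lower. Set against M0, M1 had 12 lower, in M2 against M0 6 and in M1 against M2 5. That was 92.3%, 46.2% and 38.5% of the class, where 26.7%, 12.7% and 16.6% of all genes were lower. In M1 against Ctrl NDUFB2, NDUFB11 and NDUFC2 lost their calls without Ctrl replicate 3, at -0.18, -0.205 and -0.23. In M1 against M0 NDUFB4 and NDUFC2 lost theirs without M0 replicate 3, at -0.187 and -0.215. NDUFB2, NDUFB4 and NDUFC2 lost these calls without some other libraries too. The 6 lower in M2 against M0 became 3 without M0 replicate 3, M2 replicate 2 or M2 replicate 3. The 5 became 2 without M2 replicate 1, and 3 without M2 replicate 2 or 3, M1 replicate 2 or 3 or Ctrl replicate 2. In M0 against Ctrl 1 was higher without Ctrl replicate 3 or M0 replicate 1. Their summed level was 373 ± 15.2 CPM in M1, 432 ± 3.83 in M2, 538 ± 36.9 in M0 and 599 ± 55.4 in Ctrl (SD, n = 3 each), or 62.2%, 72.1% and 89.8% of Ctrl in M1, M2 and M0.

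NDUFB6 had 21.1, 18.4 and 21.0 CPM in M1, 26.4, 23.6 and 21.3 in M2, 35.6, 33.0 and 45.2 in M0 and 44.2, 53.4 and 55.3 in Ctrl. M1 and M2 lay below both other groups, and M0 replicate 3 reached the lowest Ctrl library. Relative to Ctrl, NDUFB6 had a log2 change of -1.33 (SE 0.12, adjusted p = 8.6e-08) in M1, -1.10 (SE 0.13, adjusted p = 9.4e-07) in M2 and -0.42 (SE 0.17, adjusted p = 0.0057) in M0. It was also lower in M1 than in M0, at -0.91 (SE 0.15, adjusted p = 2.0e-05), and in M2 than in M0, at -0.67 (SE 0.16, adjusted p = 0.0019). NDUFB9, to which an acyl carrier protein binds, had 74.0, 73.1 and 77.5 CPM in M1, 84.1, 84.3 and 89.4 in M2, 125, 116 and 140.4 in M0 and 145, 151 and 147 in Ctrl. No group overlapped another, and the order was M1, M2, M0 and Ctrl from low to high. For NDUFB9 the log2 fold change was -0.98 (SE 0.031, adjusted p = 4.1e-09) in M1 against Ctrl, -0.77 (SE 0.083, adjusted p = 3.7e-07) in M1 against M0 and -0.57 (SE 0.084, adjusted p = 0.00033) in M2 against M0. Its call in M1 against M2, at -0.20 (adjusted p = 0.035), was lost without any 1 of the M1 or M2 libraries, Ctrl replicate 2 or 3 or M0 replicate 1, at values of -0.15 to -0.21. Genes on the opposite strand overlap 21.0% of its exon length.

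NDUFB7, another membrane arm subunit, had 17.3, 9.85 and 20.9 CPM in M1, 30.2, 25.4 and 25.0 in M2, 27.8, 28.8 and 29.5 in M0 and 22.0, 26.4 and 34.9 in Ctrl, so that M1 lay lowest and the other 3 groups overlapped. Its log2 fold change was -0.83 (SE 0.33, adjusted p = 0.0031) in M1 against M0 and -0.74 (SE 0.34, adjusted p = 0.011) in M1 against M2. The call against M2 was lost without M2 replicate 1, at -0.63 (adjusted p = 0.070), and the value was -0.48 without M1 replicate 2.

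Of the accessory NDUFS and NDUFV subunits, NDUFS4, NDUFS5 and NDUFS6 were lower in M1 than in Ctrl, and NDUFV3 was higher. NDUFV3, an accessory subunit of the NADH-oxidizing tip of complex I, had 28.97, 33.2 and 29.8 CPM in M1, 33.7, 35.0 and 35.1 in M2, 30.3, 33.7 and 26.4 in M0 and 22.9, 24.8 and 25.5 in Ctrl. Each conditioned library lay above the Ctrl libraries. The log2 fold change of NDUFV3 against Ctrl was 0.33 (SE 0.076, adjusted p = 0.0037) in M1, 0.51 (SE 0.050, adjusted p = 0.00013) in M2 and 0.30 (SE 0.11, adjusted p = 0.0084) in M0. The M0 call was lost without M0 replicate 2, at 0.20 (adjusted p = 0.070). None of its comparisons among M1, M2 and M0 passed the test.

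**Figure D3:**
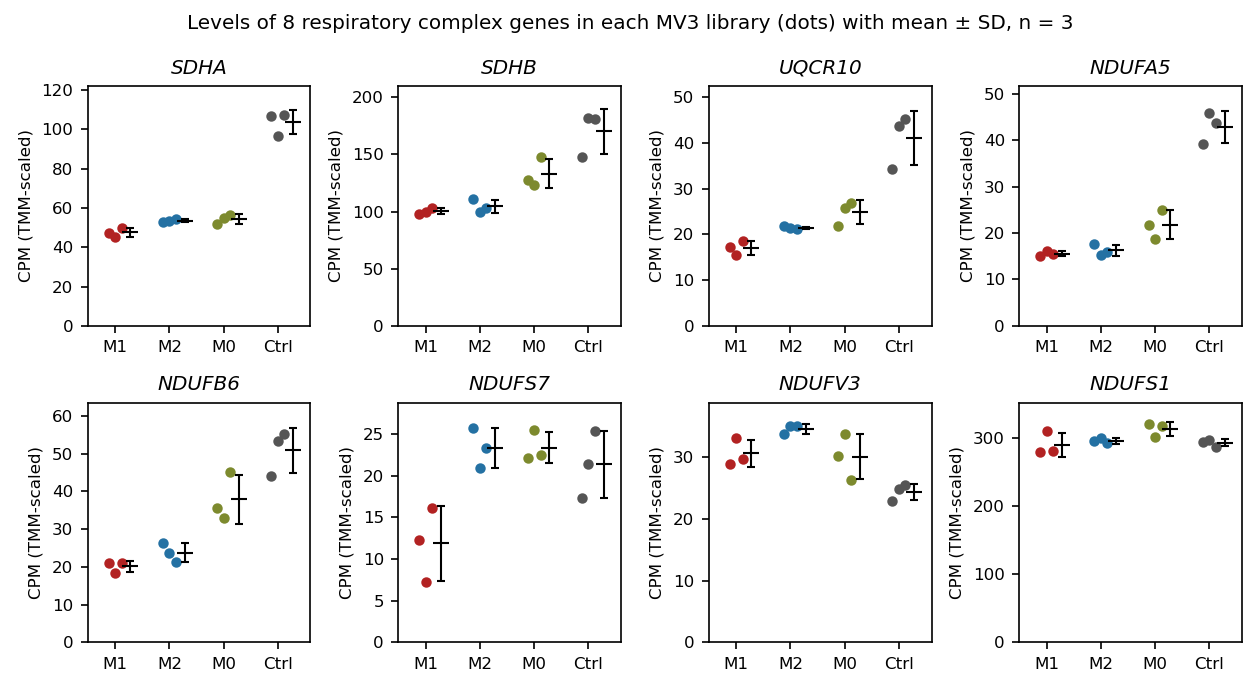
CPM (y axes, from 0) of 8 members in each library (dots), with the mean ± SD of 3 libraries beside them, in M1, M2, M0 and Ctrl. SDHA is at 45.4 to 56.5 CPM in all conditioned libraries and 96.7 to 107 CPM in Ctrl, NDUFS7 is lowest in M1, at 7.23 to 16.2 CPM, and NDUFV3 is lowest in Ctrl, at 22.9 to 25.5 CPM.

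In complex II 4 of 4 tested genes were lower than Ctrl in M1, in M2 and in M0. Of all genes, 35%, 32.4% and 30.6% were lower in M1, M2 and M0 against Ctrl. The 4 genes summed to 231 ± 5.30 CPM in M1, 238 ± 6.80 in M2, 285 ± 24.9 in M0 and 392 ± 22.0 in Ctrl (SD, n = 3 each), or 58.9%, 60.6% and 72.7% of Ctrl in M1, M2 and M0. SDHA, the flavoprotein that oxidizes succinate, had 47.3, 45.4 and 49.9 CPM in M1, 52.8, 53.2 and 54.5 in M2, 51.8, 55.0 and 56.5 in M0 and 107, 96.7 and 107 in Ctrl. All conditioned libraries lay far below Ctrl, and those of M1 below those of M2 and M0. SDHA had log2 fold changes against Ctrl of -1.12 (SE 0.063, adjusted p = 4.5e-10) in M1, -0.96 (SE 0.051, adjusted p = 4.3e-09) in M2 and -0.93 (SE 0.062, adjusted p = 7.7e-09) in M0, so the fall was 2.18-fold, 1.94-fold and 1.91-fold in M1, M2 and M0. In M2 against M0 it was -0.025 (SE 0.040, adjusted p = 0.81) and did not pass the test. M1 against M0 gave -0.20 (adjusted p = 0.020), a call lost without M0 replicate 2 or 3 or M1 replicate 1 or 2, at -0.15 to -0.18. Copies of SDHA elsewhere in the genome held 3.15% as many reads as SDHA itself.

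SDHB, the iron-sulfur subunit, had 98.1, 99.9 and 104 CPM in M1, 111, 99.9 and 103 in M2, 128, 124 and 148 in M0 and 148, 182 and 181 in Ctrl. M1 and M2 overlapped, M0 lay above them, and its replicate 3 reached the level of Ctrl replicate 1. The log2 fold change of SDHB against Ctrl was -0.76 (SE 0.10, adjusted p = 1.1e-06) in M1, -0.70 (SE 0.11, adjusted p = 3.3e-06) in M2 and -0.35 (SE 0.13, adjusted p = 0.0022) in M0. Against M0 it was lower in M1, at -0.40 (SE 0.082, adjusted p = 0.0011). SDHC and SDHD, which anchor the enzyme in the membrane and help bind quinone, moved in the same direction. SDHC had log2 fold changes against Ctrl of -0.39 (SE 0.038, adjusted p = 0.00013) in M1, -0.50 (SE 0.035, adjusted p = 1.4e-05) in M2 and -0.23 (SE 0.081, adjusted p = 0.010) in M0. SDHD had 34.3, 35.9 and 34.5 CPM in M1, 36.5, 34.0 and 34.1 in M2, 41.6, 39.5 and 49.9 in M0 and 50.2, 60.6 and 55.6 in Ctrl, with log2 fold changes against Ctrl of -0.67 (SE 0.081, adjusted p = 6.3e-06) in M1, -0.67 (SE 0.085, adjusted p = 7.9e-06) in M2 and -0.34 (SE 0.13, adjusted p = 0.0036) in M0. All conditioned libraries of SDHD lay below Ctrl. None of the 4 genes differed between M1 and M2 by edgeR, DESeq2 or limma, and 1 did at an unadjusted p under 0.05. Of the 3 genes lower in M2 than in M0 (SDHB, SDHC and SDHD, -0.27 to -0.35), 0 were called without M0 replicate 3, and 1 without M2 replicate 2 or 3. Of the 3 lower in M1 than in M0, SDHA, SDHB and SDHD, 1 was called without M0 replicate 3. With all libraries, 12.7% of all genes were lower in M2 against M0 and 26.7% in M1 against M0.

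Complex III was mixed against Ctrl and lower in M1 than in M2. Of 9 genes, 7 were lower in M1 than in Ctrl and 0 higher, 5 lower and 2 higher in M2, and 2 lower and 2 higher in M0. The lower genes were 77.8% of the 9 in M1, 55.6% in M2 and 22.2% in M0, where 35%, 32.4% and 30.6% of all genes were lower. In M1 against M2 7 of 9 were lower, in M1 against M0 7 and in M2 against M0 4. That was 77.8%, 77.8% and 44.4% of the 9, where 16.6%, 26.7% and 12.7% of all genes were lower. The 7 lower in M1 against M2 became 3 without M2 replicate 1 and 4 without M2 replicate 2 or 3, M1 replicate 1 or M0 replicate 2. The 4 in M2 against M0 became 1 without M0 replicate 3 or M2 replicate 3 and 2 without M2 replicate 1. The 2 higher than Ctrl became 0 in both media without Ctrl replicate 1 or 2, in M0 without M0 replicate 2 and in M2 without M2 replicate 1, and 1 in M0 without M0 replicate 3 and in M2 without M2 replicate 2 or 3, M1 replicate 1 or any 1 of the M0 libraries. Summed levels were 749.8 ± 12.7 CPM in M1, 885 ± 13.05 in M2, 998 ± 49.7 in M0 and 972 ± 77.5 in Ctrl (SD, n = 3 each), or 77.1%, 91.0% and 102.7% of Ctrl in M1, M2 and M0.

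**Figure D4:**
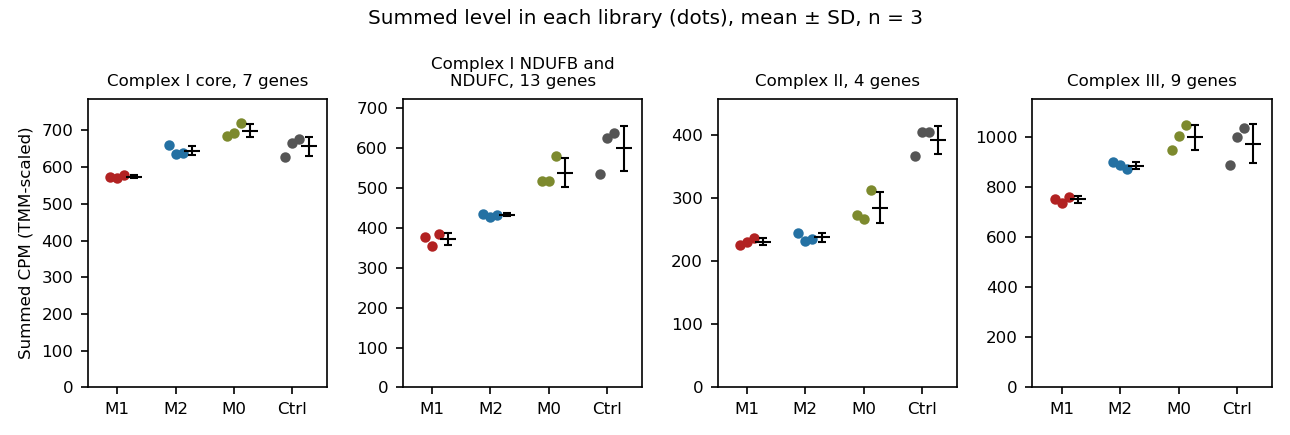
Summed CPM (y axes, from 0) of 4 subunit classes in each library (dots), with the mean ± SD of 3 libraries beside them, in M1, M2, M0 and Ctrl. Complex II is below Ctrl in all conditioned groups, complex I core and complex III are lowest in M1, and in M0 complex I core lies above Ctrl while complex III overlaps it.

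CYC1, cytochrome c1, had 151, 130 and 156 CPM in M1, 195, 177 and 185 in M2, 198, 225 and 212 in M0 and 155, 173 and 195 in Ctrl. M0 lay above Ctrl, M2 overlapped Ctrl, and M1 reached into its lower end. The log2 fold change of CYC1 was -0.54 (SE 0.10, adjusted p = 0.00012) in M1 against M0 and -0.35 (SE 0.091, adjusted p = 0.0065) in M1 against M2, and the second was lost without M2 replicate 1, at -0.30 (adjusted p = 0.051). Against Ctrl it was -0.26 (SE 0.12, adjusted p = 0.015) in M1 and 0.28 (SE 0.11, adjusted p = 0.011) in M0. The first was lost without Ctrl replicate 3 or M1 replicate 2, at -0.17 each, and the second without Ctrl replicate 1 or 2 or M0 replicate 2, at 0.18, 0.26 and 0.22, and with library totals as the only scaling, at 0.20.

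UQCRFS1, the Rieske iron-sulfur protein, fell in M1 and M2. It had 86.6, 96.0 and 85.3 CPM in M1, 89.7, 101 and 89.5 in M2, 110.4, 109 and 130.4 in M0 and 114, 131 and 132 in Ctrl. M1 and M2 overlapped each other and lay below M0 and Ctrl. UQCRFS1 had a log2 change of -0.49 (SE 0.088, adjusted p = 9.6e-05) in M1 and -0.42 (SE 0.090, adjusted p = 0.00040) in M2 against Ctrl, and -0.38 (SE 0.10, adjusted p = 0.0015) in M1 against M0. The core protein UQCRC2 had 147, 155 and 138 CPM in M1, 179.8, 178 and 171 in M2, 202, 201 and 229.5 in M0 and 189, 203 and 208 in Ctrl, so that M1 lay below the rest and M0 overlapped Ctrl. It was lower in M1 against M2, at -0.26 (SE 0.052, adjusted p = 0.0074), and in M1 against Ctrl, at -0.44 (SE 0.063, adjusted p = 2.7e-05). Its partner UQCRC1 had 163, 155 and 166 CPM in M1, 178, 174 and 172 in M2, 162, 186 and 178 in M0 and 150.2, 147 and 161 in Ctrl, with log2 fold changes against Ctrl of 0.079 (SE 0.050, adjusted p = 0.28) in M1, 0.19 (SE 0.043, adjusted p = 0.014) in M2 and 0.20 (SE 0.073, adjusted p = 0.013) in M0. The M1 value did not pass the test, and M2 and M0 lay above every Ctrl library. The calls in M2 and M0 were lost without Ctrl replicate 1, at 0.16 and 0.17, or without Ctrl replicate 2, at 0.15 in both, and further without M2 replicate 1 in M2 (0.17) and without M0 replicate 2 or 3 in M0 (0.14 and 0.17).

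Among the small accessory subunits of complex III, UQCR10 and UQCR11 went apart. UQCR10 had 17.2, 15.6 and 18.6 CPM in M1, 21.8, 21.3 and 21.2 in M2, 21.8, 25.8 and 26.8 in M0 and 34.3, 43.8 and 45.2 in Ctrl. Every conditioned library lay below Ctrl. UQCR10 fell against Ctrl with log2 fold changes of -1.26 (SE 0.14, adjusted p = 5.1e-08) in M1, -0.94 (SE 0.13, adjusted p = 1.7e-06) in M2 and -0.73 (SE 0.16, adjusted p = 3.0e-05) in M0. UQCR11 had 30.6, 29.2 and 34.6 CPM in M1, 40.1, 38.4 and 37.9 in M2, 37.1, 36.8 and 38.1 in M0 and 26.1, 34.1 and 37.1 in Ctrl. M2 lay above Ctrl and M1 and M0 overlapped it. Its log2 fold change in M2 against Ctrl was 0.26 (SE 0.16, adjusted p = 0.039), which 3 other scalings, DESeq2 and limma did not call, and which was 0.11 (adjusted p = 0.28) without Ctrl replicate 1. It was also lost without Ctrl replicate 2, M1 replicate 1 or any 1 of the M2 or M0 libraries, at 0.23 to 0.29. UQCRH, the hinge protein, was lower in M1 against M0 with a log2 change of -0.55 (SE 0.043, adjusted p = 2.2e-05), and UQCRQ of -0.81 (SE 0.087, adjusted p = 4.5e-05); both were named after their values were seen. The copy UQCRHL was at 0.379 ± 0.0582 CPM in M1 and 0.703 ± 0.242 in Ctrl, beside 49.7 ± 1.35 and 79.4 ± 8.64 CPM for UQCRH.

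Per kb of exon, levels in Ctrl ran highest for NDUFS5, at 145.8 CPM per kb, CYC1 at 88.3 and SDHB at 69.1. SDHA stood at 5.67 CPM per kb in M1, 6.38 in M2, 6.49 in M0 and 12.4 in Ctrl, and SDHB at 40.8, 42.5, 54.1 and 69.1 in the same groups. In each group SDHA thus had the lower level per annotated exon length of these 2 partners. That length merges all annotated exons of a gene, 8383 bases for SDHA and 2462 for SDHB. It is not the length of the transcript expressed here, so such rankings depend on the annotation. SDHA also has 3 copies elsewhere in the genome and SDHB 0, and reads lost to such copies were not assessed.

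Changes of the members are given beside the GC content of the longest annotated transcript of each. Across the 50 members Pearson's r of log2 fold change with GC was 0.24 in M1, 0.62 in M2 and 0.54 in M0 against Ctrl, and -0.57 in M1 against M2, against -0.04, 0.06, 0.00 and -0.16 over 14048 genes. Against M0 it was -0.23 in M1 and 0.49 in M2, beside -0.06 and 0.13 over the same genes. These are descriptions over genes that share libraries and give no p. The deviation of members from the mean of the other libraries of their group also had an r with GC. It was -0.56 in M1 replicate 2 and 0.57 in M1 replicate 3. In M0 it was -0.58 in replicate 3 and 0.50 in replicate 2, and it was 0.47 in Ctrl replicate 3. The remaining libraries had -0.25 to 0.31. Deviations within a group depend on each other, as each is taken from the mean of the other libraries. The part of this deviation in the differences was not tested. NDUFS7, NDUFB7 and NDUFS8, lowest in M1 against M2, have GC contents of 60.8%, 65.0% and 57.9%, against a member median of 48.5%.

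Subunits of complex IV, which takes electrons from cytochrome c to oxygen, and of complex V, the ATP synthase, were lower in M1 as well. The lists named here were compiled with earlier results of these data known. In M1 against M0 all 10 nuclear complex IV subunits were lower, between COX7C with a log2 fold change of -0.58 (adjusted p = 5.9e-05) and COX6A1 with -0.20 (adjusted p = 0.030), and all 15 of complex V, between ATP5F1D with -1.12 (adjusted p = 0.00022) and ATP5F1E with -0.29 (adjusted p = 0.0044). In that comparison 26.7% of all genes were lower. In M0 against Ctrl 1 complex IV gene was lower and 2 higher, with 3 lower and 0 higher when Ctrl replicate 1 was left out, and 2 and 0 when M0 replicate 3 was. The lower one was COX6B1, at -0.32 (adjusted p = 0.012), and COX5B had the higher value of the other two, 0.31 (adjusted p = 0.020), a call lost without either of these libraries. In the same comparison 4 complex V genes were lower and 1 higher (0 without Ctrl replicate 1), ATP5MC3 lowest at -0.62 (adjusted p = 7.1e-06) and ATP5F1E higher at 0.24 (adjusted p = 0.011). In M1 against Ctrl 7 of 10 and 14 of 15 were lower, and in M2 against Ctrl 3 and 9, the 3 becoming 5 without Ctrl replicate 1. All of these sets stand beside 35%, 32.4% and 30.6% of all genes lower in M1, M2 and M0 against Ctrl, and in M0 the share of complex V, 26.7%, was near that of all genes. The 8 mitochondrially encoded complex I and III genes, of which 7 were tested, were lower than Ctrl in 7 cases in M1, 6 in M2 and 6 in M0, but in 3, 2 and 1 without Ctrl replicate 1. In M0 against Ctrl the called values ran between MT-ND4L, at -2.17 (adjusted p = 0.0066), and MT-CYB, at -1.41 (adjusted p = 0.030). These sizes rested on Ctrl replicate 1: the median of the 7 was -2.04 with it and -0.26 without it.

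Of 16 complex I assembly factors, 11 were lower and 2 higher in M1 against Ctrl, 8 and 3 in M2, and 4 and 3 in M0. The lower ones were 68.8%, 50% and 25% of the 16, where 35%, 32.4% and 30.6% of all genes were lower in M1, M2 and M0. NDUFAF2 was at 18.7 ± 2.00 CPM in M1, 20.2 ± 0.898 in M2, 20.05 ± 2.05 in M0 and 12.6 ± 1.10 in Ctrl, a log2 fold change of 0.68 in M0 against Ctrl (adjusted p = 3.8e-05). COA1 had one of -0.55 (adjusted p = 6.7e-05). ECSIT was lower in M1 against M0, at -0.83 (adjusted p = 3.0e-05), and NDUFAF5 was at -0.31 (adjusted p = 0.0065). Of 10 assembly factors of complexes II and III, 6 were lower and 1 higher in M1 against Ctrl, 4 and 2 in M2 (1 higher without Ctrl replicate 1), and 2 and 1 in M0, so that 60%, 40% and 20% were lower. TTC19, needed for complex III assembly, averaged 47.8 ± 4.37 CPM in M1, 58.2 ± 1.91 in M2, 56.0 ± 5.30 in M0 and 22.4 ± 0.885 in Ctrl, and was higher than Ctrl in all 3 media and lower in M1 than in M0, at -0.23 (adjusted p = 0.026). UQCC1, which helps cytochrome b synthesis, averaged 56.5 ± 1.21, 62.1 ± 4.68, 57.8 ± 1.34 and 111 ± 3.32 CPM in the same groups and was lower in all 3. SDHAF3, an assembly factor of SDHB, was lower in M1 than in M0, at -1.19 (adjusted p = 5.0e-06).

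Of 14 citric acid cycle enzymes, 12 were lower and 1 higher in M1 against Ctrl, 8 and 1 in M2, and 4 and 5 in M0 (2 higher without Ctrl replicate 1). As shares, 85.7%, 57.1% and 28.6% were lower in M1, M2 and M0, where 35%, 32.4% and 30.6% of all genes were, and 7.14%, 7.14% and 35.7% higher, where 35.2%, 34.1% and 31.1% of all genes were, so the M0 shares were near those of all genes. OGDH, of the step before succinyl-CoA, averaged 125 ± 10.4 CPM in M1, 115 ± 6.75 in M2, 104 ± 5.14 in M0 and 187 ± 11.2 in Ctrl, and SUCLG2, of the step after it, averaged 20.9 ± 2.12, 24.0 ± 1.06, 28.9 ± 0.948 and 14.4 ± 0.938 CPM in the same groups. OGDH was lower and SUCLG2 higher than Ctrl in all 3 media, next to the falls of the SDH genes described above. In M1 against M0 SUCLG1, a partner of SUCLG2, was lowest of the list at -0.69 (adjusted p = 2.7e-06), and OGDH was higher, at 0.26 (adjusted p = 0.0079). Of 15 tested carriers and enzymes that feed quinone, 10 were lower and 3 higher in M1 against Ctrl, 9 and 3 in M2, and 6 and 4 in M0, which is 66.7%, 60% and 40% lower and 20%, 20% and 26.7% higher. GPD2, which feeds electrons from glycerol 3-phosphate, had a log2 fold change of -0.70 in M0 against Ctrl (adjusted p = 3.8e-06). COQ5, a methyltransferase of ubiquinone synthesis, was higher than Ctrl in all 3 media, at 0.48, 0.58 and 0.56 in M1, M2 and M0 (adjusted p = 0.00019, 4.0e-05 and 6.4e-05). ETFB, which carries electrons from fatty acid oxidation, was lower in M1 than in M0, at -1.02 (adjusted p = 9.1e-05). SQOR, which passes electrons from sulfide to quinone, averaged 1.10 ± 0.327 CPM in M1 and 0.576 ± 0.232 in M0 and was higher in M1, at 0.92 (adjusted p = 0.017), a call lost without M0 replicate 3. Of 12 general mitochondrial genes, 7 were lower and 4 higher in M1 against Ctrl, 6 and 4 in M2, and 5 and 4 in M0, which is 58.3%, 50% and 41.7% lower and 33.3% higher in each. TIMM44, of the protein import motor, averaged 111 ± 5.42 CPM in M1, 165 ± 6.43 in M2, 164 ± 6.27 in M0 and 54.6 ± 4.40 in Ctrl, and was higher than Ctrl in all 3 media. VDAC3, an outer-membrane channel, was lower, with -0.55 in M0 against Ctrl (adjusted p = 0.00011). In M1 against M0 11 of the 12 were lower (91.7%), where 26.7% of all genes were. The called values ran between TOMM40, of the import pore, at -0.82 (adjusted p = 1.9e-06), and the chaperone HSPA9, at -0.16 (adjusted p = 0.030).

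Of 11 tested regulators of respiratory gene transcription, 5 were lower and 3 higher in M1 against Ctrl, 3 and 2 in M2, and 4 and 3 in M0. The lower ones were 45.5%, 27.3% and 36.4%, where 35%, 32.4% and 30.6% of all genes were lower, and the higher ones 27.3%, 18.2% and 27.3%, where 35.2%, 34.1% and 31.1% of all genes were higher. PPARGC1A did not pass the filter. Its relative PPARGC1B averaged 10.3 ± 0.564 CPM in M1, 10.8 ± 1.64 in M2, 7.38 ± 1.14 in M0 and 23.0 ± 6.16 in Ctrl, with log2 fold changes against Ctrl of -1.16 (SE 0.22, adjusted p = 1.2e-05) in M1, -1.10 (SE 0.25, adjusted p = 2.9e-05) in M2 and -1.64 (SE 0.25, adjusted p = 8.5e-07) in M0. Among the conditioned groups its M0 mean was lowest, and M1 was higher than M0 by 0.48 (adjusted p = 0.033), a call lost without M0 replicate 3. TFAM, which packages and transcribes mitochondrial DNA, was lower in all 3, at -0.53, -0.49 and -0.34 in M1, M2 and M0 (adjusted p = 1.7e-06, 5.4e-06 and 0.00022). PPRC1 was lower in all 3 as well, at -0.42, -0.29 and -0.27. TFB2M, a transcription factor of mitochondrial DNA, was higher in all 3, at 0.70, 0.77 and 0.86 in M1, M2 and M0 (adjusted p = 6.1e-07, 2.6e-07 and 1.1e-07). TFB1M, which modifies mitochondrial ribosomal RNA, was lower in M1 than in M0, at -0.50 (adjusted p = 0.0015). NRF1, whose motif 12 member promoters held, was higher in M0 against Ctrl, at 0.29 (adjusted p = 0.0084), and lower in M1 against M0, at -0.25 (adjusted p = 0.021). GABPA and ESRRA passed no test in the 6 comparisons, and YY1 was higher in M1 against Ctrl, at 0.17 (adjusted p = 0.019). Of the genes the name rule leaves out, NDUFAB1 was lower in M1 and M2 against Ctrl, at -0.26 and -0.22 (adjusted p = 0.014 and 0.034), and NDUFA4L2 was higher than Ctrl in all 3 media at under 1 CPM, averaging 0.459 ± 0.0892 CPM in M1, 0.812 ± 0.191 in M2, 0.844 ± 0.199 in M0 and 0.185 ± 0.0585 in Ctrl (adjusted p = 0.0038, 3.8e-05 and 5.2e-05 in M1, M2 and M0 against Ctrl).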

How the data were processed

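RNA of 12 MV3 samples was made into TruSeq Stranded mRNA libraries and sequenced as single reads, per the labels' protocols. The authors deposited a table of raw counts per gene and a table of variance-stabilized log2 values. Per the submitters' processing notes, tools were STAR 2.5.4b and Bowtie2 2.2.3 beside Trimmomatic 0.36 and FastQC 0.11.7, with DESeq2 1.20.0 under R, and the build was hg38. Neither the annotation release nor the strand setting of the counting is given in the sources used here, so genes that overlap on opposite strands may share reads. Gene identifiers matched GENCODE 29 for 58025 of 58288 genes without version, and exon lengths, GC content and overlaps came from it. The counts in the 12 per-sample files equal those of the table.

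The members, lists and tests were chosen with earlier results of these data known. Groups came from the sample labels. Counts were scaled by TMM and fitted over all 12 libraries with edgeR's quasi-likelihood test (edgeR 4.0.16, R 4.3.3), after a filter that kept 14088 genes (minimum count 10, total 15). Contrasts were adjusted by Benjamini-Hochberg over all of these genes, with a threshold of 0.05. Standard errors are those of log2 CPM (prior count 2) over 3 and 3 libraries, a separate estimate from the edgeR fold change. CPM uses the TMM library sizes. By library totals without TMM scaling, a gene with 3 counts stands at 0.0699 to 0.138 CPM, and this floor covers counting error only. Named members were the SDH genes, CYC1, UQCRFS1, UQCRC1, UQCRC2, the 7 core complex I genes and, in each comparison, the 3 highest and 3 lowest called members whose groups do not overlap, and of each other list the highest and lowest called gene in M0 against Ctrl and in M1 against M0, with 8 regulators. Alternatives were other scalings, no filter, DESeq2 1.42.0, limma 3.58.1 on the deposited log2 values, a replicate block, the compared groups alone and leaving out libraries. Promoter windows are from RefSeq. The values of 1 core complex I gene are not reported here, though it is counted among the members.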

Additional observations from a re-analysis of the deposited data

How the results depend on the processing

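Of 144 values (24 members in 6 comparisons) under 22 other settings, 0 called values changed sign, 3020 kept their side of the threshold, 128 of them uncalled values whose sign differed, 116 lost a call and 29 gained one, and 3 could not be given (1 by DESeq2 and 2 with the compared groups alone). With library totals as the only scaling 2 members were higher in M0 against Ctrl, in place of 4, and 60.3% of the calls over all genes in M2 against M0 were higher and 38.8% in M1 against M2, in place of 49.7% and 49.0%. Without M0 replicate 3 and M2 replicate 2 together, 2 members were higher in M0 against Ctrl and 1 was lower in M2 against M0, in place of 4 and 21. Without M1 replicate 2 and Ctrl replicate 1 together, a setting chosen after seeing the data, 41 were lower in M1 against Ctrl and 42 in M1 against M0.

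Leaving out 1 library at a time gave 1 to 1 members higher and 35 to 42 lower in M1 against Ctrl, 1 to 5 higher and 22 to 33 lower in M2 against Ctrl, and 1 to 6 higher and 13 to 19 lower in M0 against Ctrl. In M1 against M0 it gave 0 to 0 higher and 32 to 43 lower, in M2 against M0 0 to 1 and 6 to 23, in M1 against M2 0 to 0 and 11 to 22, and 30 to 42 in the joint test. Same-numbered libraries had correlated deviations of -0.077 to 0.154 over 18 pairs, and in 22 of 36 cases (a library against the libraries of another group) the best partner had the same number, where 12 would if every number were equally likely. The correlation was not over 0.1 in every pair and the labels give no shared origin, so this is a hint from the data and not from the design. With the replicate block 41 members were lower in M1 against Ctrl, 26 in M2 against Ctrl, 16 in M0 against Ctrl, 41 in M1 against M0, 21 in M2 against M0 and 22 in M1 against M2. NDUFV2 and NDUFA7 were counted at under 1 CPM. Same-strand genes cover 28.4% and 32.3% of their exon length, so their counts are uncertain.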
